A study of Mus musculus with 2 samples.

Results

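The homeostatic CXC chemokines and their receptors comprise 6 genes, namely the ligands Cxcl12, Cxcl14 and Cxcl16 and the receptors Cxcr4, Cxcr6 and Ackr3. They were chosen by name and not by any measured value, and all 6 were among the 27998 genes counted in each single-cell library. Their transcripts were followed across the stromal, endothelial, epithelial, lymphoid and myeloid cells of mouse ear skin, with and without allergic contact dermatitis (ACD).

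The study compared 2 single-cell RNA-seq libraries of dissociated ear skin from ICR mice aged 7 to 8 weeks, an outbred strain. The control library was labelled CTRL, and its control mice are not described further here. The ACD library came from mice that the contact allergen 2,4-dinitrofluorobenzene (DNFB) had sensitized through the back skin at 1.0%, followed by elicitation on the ears at 0.2% on day 6, and the ears were taken 60 hr later. The sources used here do not give the number of mice pooled in a library, and both libraries passed through enzymatic digestion and removal of dead cells, which can change the proportions of fragile cell types. Each group was 1 library, so the spread between replicates is unknown and the conditions were not tested against each other, and every interval given here is an exact 95% interval that covers counting error only.

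CXCL12 is a chemoattractant that stromal cells and vessels produce without stimulation, and it holds CXCR4-bearing leukocytes and progenitors in place. ACKR3 (CXCR7) also binds CXCL12, but it takes the ligand up and degrades it without signalling through G proteins. CXCL14 is made by resting epithelium and fibroblasts and has no receptor in general agreement. CXCL16 is a membrane-bound chemokine that is shed by ADAM proteases, and its receptor CXCR6 is carried by activated and tissue-resident T cells and innate lymphocytes.

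The sequences that define the family are shown first. The 3 ligands share a cysteine pair spaced by a single residue, from which the CXC name comes, and the receptors carry the D-R-Y motif, or its D-R-F variant, at the end of the third transmembrane helix, the site through which a typical receptor engages its G protein. The 30-base coding windows below were read 5′ to 3′ from the GENCODE M21 transcripts of GRCm38, and the capitals mark the 9 bases that encode the motif. The windows lie in exon 2 of each gene's longest coding transcript, except that of Cxcl14, which spans the junction of exons 1 and 2.
Cxcl12, chr6:117171499-117171528, plus strand: agctaccgaTGCCCCTGCcggttcttcgag
Cxcl14, chr13:56295903-56296110, minus strand: gggtccaagTGTAAGTGTtcccggaagggg
Cxcl16, chr11:70459115-70459144, minus strand: gctggaagtTGTTCTTGTgatcgtaccatt
Cxcr4, chr1:128589500-128589529, minus strand: atcagcctgGACCGGTACctcgctattgtc
Cxcr6, chr9:123810329-123810358, plus strand: atcacagtgGATCGTTTCattgtagtggtc
Ackr3, chr1:90214232-90214261, plus strand: atgagcgtgGACCGCTATctctccatcacc

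The genes lie apart on GRCm38. Cxcl12 (ENSMUSG00000061353) is at chr6:117168535-117181367, Cxcl14 (ENSMUSG00000021508) at chr13:56288643-56296551, Cxcl16 (ENSMUSG00000018920) at chr11:70453983-70459984, Cxcr4 (ENSMUSG00000045382) at chr1:128588199-128592293, Cxcr6 (ENSMUSG00000048521) at chr9:123806475-123811760 and Ackr3 (ENSMUSG00000044337) at chr1:90203980-90216751. Cxcl16 overlaps Zmynd15, and Cxcr6 overlaps Fyco1, in each case a coding gene on the opposite strand.

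RefSeq promoter windows (GRCm38.p6) were held for 5 of the 6 genes, Cxcl16 being the exception. They were searched on both strands for the gamma-activated site (GAS, TTCNNNGAA), the interferon-stimulated response element (ISRE, GAAA, any 2 bases, GAAA), the hypoxia response element core (ACGTG), a T-box site (AGGTGTGA) and the NF-kB consensus, over 250 bases before and 50 after the start. Only Cxcl14 held any match, with a GAS starting 191 bases and an ISRE starting 172 bases before the start, and the 2 matches do not overlap. Among 32851 promoters of that length, 8.30% held a GAS and 3.44% an ISRE. A match describes letters and not a bound site. The promoter is shown because it alone held a match, with the matches in capitals.
Cxcl14 promoter, 250 bases, chr13:56296552-56296801, minus strand: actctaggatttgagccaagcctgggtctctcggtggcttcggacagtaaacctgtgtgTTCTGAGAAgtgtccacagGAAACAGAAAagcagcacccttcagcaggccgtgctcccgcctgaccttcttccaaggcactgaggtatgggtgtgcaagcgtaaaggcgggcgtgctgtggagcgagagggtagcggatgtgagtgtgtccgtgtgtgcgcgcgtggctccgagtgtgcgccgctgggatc

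The control library held 12895 barcodes and 99037698 unique molecular identifiers (UMIs, each a counted transcript molecule), and the ACD library held 13163 barcodes and 126566870 UMIs. Of these, 12213 control and 11665 ACD cells passed a filter on genes found (above 200 and below 5000), on UMIs (25000 or fewer) and on the mitochondrial share (under 8%), with medians of 6850 and 7447 UMIs. The libraries shared 50 barcode sequences, and leaving those cells out changed no direction of a level of a member. Cells were assigned to a class by gates on marker genes, none of them a member, and class names below mean cells that carried those markers. Stromal cells numbered 10134 in control and 6260 in ACD (83.0% and 53.7% of the cells kept), lymphoid cells 789 and 3413 (6.46% and 29.3%), myeloid cells 154 and 559, epithelial cells 173 and 130, and endothelial cells 144 and 121. The leukocyte gene Ptprc measured 587 and 668 counts per 1000000 UMIs in the lymphoid class against 3.85 and 14.2 in the stromal class, so the separation was clear in both libraries, but Ptprc in stromal cells was itself higher in ACD. Levels are given in CPM, that is, the UMIs of a gene summed over the cells of a class and divided by all UMIs of the same cells, times 1000000.

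The 6 genes had distinct territories. Stromal cells held 97.8% of Cxcl12, 91.5% of Cxcl14 and 94.0% of Ackr3 UMIs in control, and 96.1%, 88.1% and 90.4% in ACD. Cxcr6 was lymphoid, with 81.4% of its UMIs in lymphoid cells of control and 91.3% in ACD. Cxcl16 and Cxcr4 were spread more widely, and their distribution shifted with the cells present. The stromal share of Cxcl16 UMIs was 70.5% in control and 50.3% in ACD, while the myeloid share was 14.7% and 34.4%. The stromal share of Cxcr4 UMIs was 36.6% and 16.1%, and the lymphoid share 46.0% and 61.7%.

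**Figure D1:**
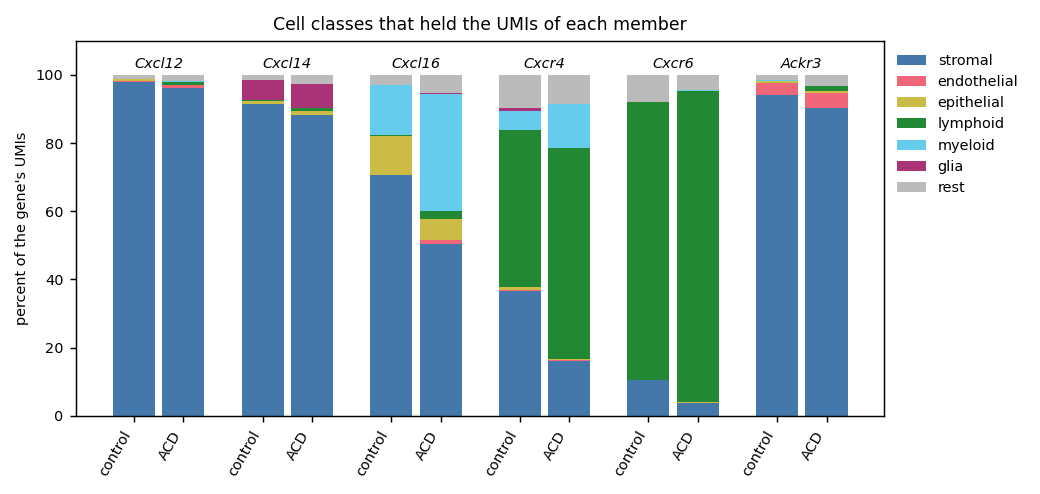
Stacked bars give the percent of each gene's UMIs found in each cell class, for the control and the ACD library (rest: melanocytes, muscle, erythroid, mixed and ungated cells). Cxcl12, Cxcl14 and Ackr3 were over 88% stromal in both libraries, Cxcr6 was over 81% lymphoid, and Cxcl16 and Cxcr4 were shared among classes.

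Whole-library ratios differed from those within classes. Cxcr6 measured 13.1 CPM over all kept control cells and 76.7 over all ACD cells (log2 ratio 2.55, 2.46 to 2.64), yet within the lymphoid class it measured 294 and 313 (log2 ratio 0.09, -0.01 to 0.19). Cxcr4 was likewise higher over all ACD cells (5.66 and 17.1, log2 ratio 1.59, 1.45 to 1.74) and lower within lymphoid cells. The stromal genes went the other way over all cells, with log2 ratios of -0.42 for Cxcl12 and -0.41 for Ackr3, while within stromal cells both were level. Values per class are therefore given below.

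**Figure D2:**
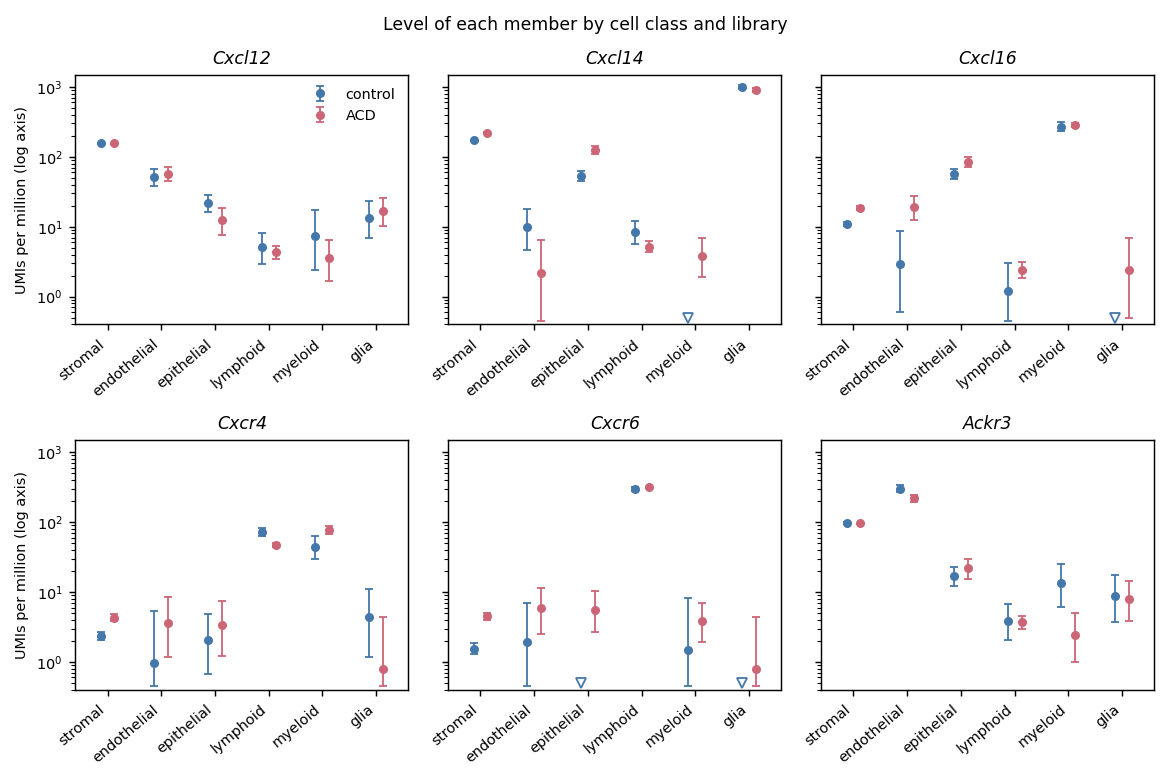
CPM, on a log axis, for the 5 classes and for glia in the control (blue) and the ACD (red) library, with exact Poisson intervals of counting error that are cut at the lower end of the axis; open triangles mark 0 UMIs. Levels differed far more between classes than between libraries, and Cxcl14 was highest in glia (995 and 895).

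Counted as past 2-fold on the scale of CPM plus 10, with at least 50 UMIs over both libraries, 1 member in 1 class was called, Cxcl14 in epithelial cells. In stromal cells 0 of 6 members were past 2-fold in either direction, against 0.559% of all tested genes higher and 0.0769% lower in ACD. In lymphoid cells it was also 0 of 6, against 1.44% higher and 1.28% lower. In epithelial cells 1 of 4 tested members was higher and 0 lower, against 1.64% and 0.545% of all genes. In endothelial cells 0 of 2 were past it (2.7% and 1.04% of all genes), and in myeloid cells 0 of 2 (4.45% and 3.77%). The remaining members had fewer than 50 UMIs in those classes. With 2 to 6 members tested in a class, these counts are too small to set the members apart from the background, and larger differences lay within the classes.

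Cxcl12, the ligand of CXCR4 and ACKR3, measured 155 (153 to 158) CPM in control stromal cells and 157 (154 to 160) in ACD stromal cells (log2 ratio 0.01, -0.03 to 0.05). Next came endothelial cells at 50.8 (37.9 to 66.6) and 56.3 (44.4 to 70.4), then epithelial cells at 21.5 (16.1 to 28.2) and 12.3 (7.73 to 18.7). Lymphoid cells had 5.09 and 4.31 and myeloid cells 7.39 and 3.52, and the intervals of those 2 classes overlapped in both libraries. Stromal cells thus stood highest in each library, and the epithelial and myeloid intervals overlapped in control but not in ACD.

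The summed level in stromal cells was near equal in both libraries, but a smaller share of the cells carried it in ACD. Among cells thinned to 2000 UMIs, 14.9% (14.2% to 15.6%) of 10032 control cells and 11.7% (10.9% to 12.5%) of 6196 ACD cells had a Cxcl12 UMI. The background share in lymphoid cells, which lack the gene, was 0.673% and 0.751%. Thinning left out 102 and 64 stromal and 46 and 85 lymphoid cells with fewer UMIs, and the unthinned stromal shares were 26.8% and 24.4% at median depths of 7295.5 and 9382.5 UMIs. Before thinning, cells with a Cxcl12 UMI held a mean of 4.62 of them in control and 6.56 in ACD. Their median depths were 7697 and 11769 UMIs. Also before thinning, stromal cells with 20 or more Cxcl12 UMIs numbered 106 and 130. They held 25% and 47.6% of all stromal Cxcl12 UMIs. At 2000 UMIs, 1498 control cells with Cxcl12 held 3160 of its UMIs and 726 ACD cells held 1561. The number per cell with a UMI was thus near equal at that depth. Averaged over cells instead of over UMIs, the log2 ratio was -0.33, and with every cell thinned to 2000 UMIs it was -0.32, so the level stromal value holds for the summed UMIs only.

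Within the stromal class the gates separated. Fibroblast-like cells (5952 and 3446 cells) measured 249.5 (245 to 254) and 269 (264 to 275) CPM of Cxcl12 (log2 ratio 0.11, 0.07 to 0.15), with a ratio of -0.21 when averaged over cells and -0.20 after thinning. Chondrocyte-like cells (3522 and 2422) measured 7.63 (6.68 to 8.69) and 8.78 (7.66 to 10.03). Mural-like cells, the pericytes and smooth muscle around vessels (660 and 392 cells), measured 152 (140 to 165) in control and 90.2 (81.2 to 100.02) in ACD (log2 ratio -0.75, -0.95 to -0.56). The mural ratio stayed between -0.90 and -0.68 under every alternative tried for it.

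The fibroblast-like cells that were richest in Cxcl12 differed between the libraries. Clusters were made without the 6 genes and are named here by their leading genes. Some fibroblast-like cells lay in clusters that also held chondrocyte-like cells and had little Cxcl12. An Ucma and Smoc1 cluster held 632 control and 499 ACD fibroblast-like cells, at 13.2 and 17.6 CPM. An Angptl7 and Cilp2 cluster held 843 and 781, at 18.4 and 28.0 CPM. Their part in the values and shares of the whole fibroblast-like gate was not tested. A Postn, Cyp2f2 and Stmn2 cluster held 2344 fibroblast-like cells in control and 206 in ACD, and measured 433 (424 to 442) and 365 (340 to 390) CPM. A Saa3, Cxcl9 and Ccl8 cluster held 30 control and 513 ACD cells, and measured 362 (303 to 429) and 868 (847 to 889) (log2 ratio 1.26, 1.01 to 1.52). Its 30 control cells also held 27 Cxcr6 and 7 Cxcr4 UMIs, genes of leukocytes, at 73.0 (48.1 to 106) and 18.9 (7.61 to 38.99) CPM against 8.19 and 2.86 in ACD, and their part in the cluster's ratios was not tested. This cluster was nearly absent from control, and its ACD level of Cxcl12 was above that of every other fibroblast-like or mural-like cluster described here. The Sfrp4, Mfap5 and Pi16 cluster was near level at 345 (328 to 363) and 363 (340.01 to 386). A Ccl11 and Apod cluster measured 71.6 (50.7 to 98.3) and 160 (130 to 195) with 116 and 98 cells. A Coch, Crabp1 and Tnmd cluster was low throughout, at 18.0 (13.1 to 24.1) and 5.92 (3.51 to 9.35).

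Among mural-like cells, both clusters had less Cxcl12 in ACD. The Rgs5 cluster, Rgs5 being a pericyte marker, measured 333 (301 to 368) in control and 200 (176 to 228) CPM in ACD. The Tagln and Acta2 cluster, genes of contractile smooth muscle, measured 77.6 (66.04 to 90.6) in control and 48.3 (39.7 to 58.2) in ACD. The endothelial signal came from few cells. Arterial-like cells measured 236 (149 to 353) in 16 control cells and 276 (212 to 354) in 23 ACD cells, and a single ACD cell gave 35 of their 62 UMIs. Without the top cell of each library the endothelial class measured 39.2 and 31.0, so its ratio changed sign, from 0.15 to -0.34.

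**Figure D3:**
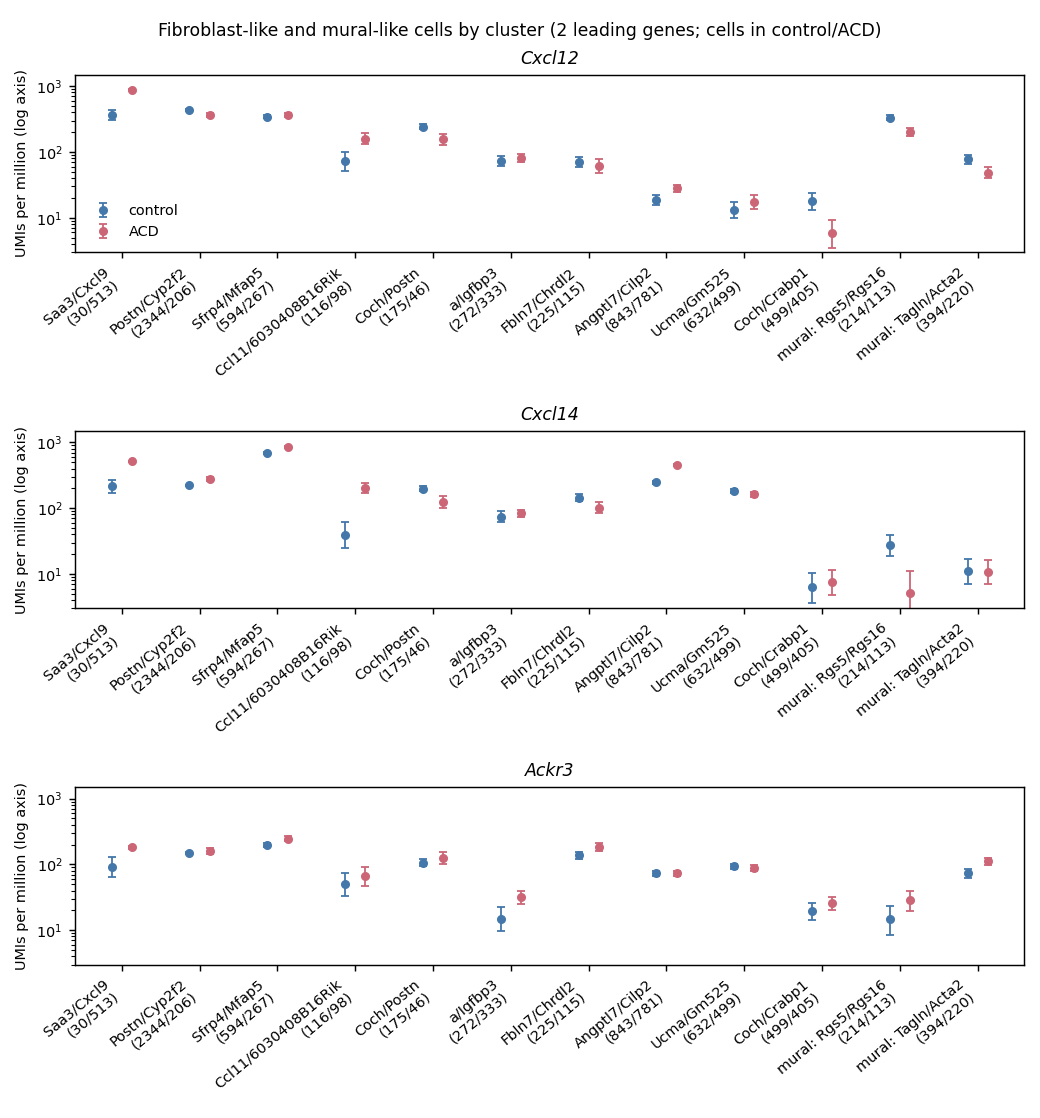
CPM, on a log axis, of Cxcl12, Cxcl14 and Ackr3 in the fibroblast-like and mural-like cells of each cluster with at least 200 such cells, control in blue and ACD in red, with exact Poisson intervals cut at the lower end of the axis. Cxcl12 reached 868 in the Saa3/Cxcl9 cluster and was lower in ACD in both mural clusters, where Ackr3 was higher.

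Cxcl14, the ligand without an agreed receptor, measured 173 (170 to 176) CPM in control stromal cells and 220 (216 to 223) in ACD (log2 ratio 0.34, 0.31 to 0.38). Epithelial cells followed at 53.4 (44.6 to 63.4) and 125 (109 to 142). Endothelial cells had 10 and 3 UMIs, lymphoid cells 28 and 116 UMIs (8.39 and 5.21 CPM), and myeloid cells 0 and 11. Outside the 5 classes, glia had the highest level of any group, 995 (931 to 1062) and 895 (844 to 949) CPM in 290 and 295 cells, and a Cxcl14 UMI was found in 57.9% and 46.1% of the glia thinned to 2000 UMIs. Melanocytes measured 73.0 (57.5 to 91.4) and 43.8 (32.7 to 57.4).

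The stromal gates differed in opposite directions for Cxcl14. Fibroblast-like cells measured 239 (234 to 243) in control and 349 (343 to 355) CPM in ACD (log2 ratio 0.55, 0.51 to 0.58). Chondrocyte-like cells measured 89.4 (86.0 to 92.8) in control and 71.7 (68.4 to 75.1) in ACD (log2 ratio -0.32, -0.41 to -0.23). The sign differed by cluster within this gate. Chondrocyte-like cells of a cluster with Col2a1 among its leading genes measured 60.4 and 44.4, and those of the Ucma and Smoc1 cluster 148 and 100. Those of the Angptl7 and Cilp2 cluster measured 183 and 259 (log2 ratio 0.50, 0.31 to 0.68). Fibroblast-like cells of the Ucma and Smoc1 cluster measured 181 and 162. The share of fibroblast-like cells with a UMI was near equal, at 23.7% (22.7% to 24.8%) and 23.5% (22.1% to 24.98%) after thinning, against 0.673% and 0.901% in lymphoid cells. Before thinning, 69 control and 137 ACD fibroblast-like cells with 20 or more Cxcl14 UMIs held 18.9% and 46.7% of the UMIs. Fibroblast-like cells with a Cxcl14 UMI had median depths of 8464 and 11992 UMIs. At 2000 UMIs, 1394 control cells with Cxcl14 held 2597 of its UMIs and 798 ACD cells held 1953. The number per cell with a UMI was thus higher in ACD at that depth too.

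The ratio was highest in the Ccl11 and Apod cluster, where Cxcl14 measured 39.6 (24.5 to 60.5) and 205 (171 to 244) CPM (log2 ratio 2.37, 1.70 to 3.11). The Saa3, Cxcl9 and Ccl8 cluster measured 214 (169 to 266) and 512 (496 to 528), and the Angptl7 and Cilp2 cluster 245 (234 to 257) and 452 (438 to 467). The Sfrp4, Mfap5 and Pi16 cluster had the highest level among fibroblast-like clusters in both libraries, 695 (670 to 720) and 857 (822 to 892). The Coch, Postn and Slurp1 cluster was lower in ACD, 197 (180 to 215) and 125 (102 to 153). Cells that the filter removed bear on these values. The filter removed 352 fibroblast-like ACD barcodes, of which 233 were above the limit on genes or UMIs. All 352 together measured 1195 CPM of Cxcl14, one of them with 807 UMIs. With all deposited barcodes the fibroblast ratio was 1.10.

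In the epidermis, Cxcl14 was the member called past 2-fold, with 129 and 222 UMIs and a log2 ratio of 1.22 (0.90 to 1.55). Basal keratinocyte-like cells measured 48.2 (37.9 to 60.4) CPM in 119 control cells and 173 (151 to 198) in 90 ACD cells. Hair follicle-like cells went the other way, with 51 UMIs in 48 control cells and 1 UMI in 27 ACD cells (63.5 and 2.50 CPM, log2 ratio -4.66, -10.00 to -2.12). A single control follicle-like cell held 23 of the 51 UMIs. The 35 follicle-like ACD barcodes that the filter removed held 43 Cxcl14 UMIs (24.95 CPM). With all deposited barcodes the follicle-like levels were 59.3 and 20.6 CPM, so the size of this ratio depended on the cell filter. These values rest on few cells. A single basal ACD cell held 58 of the 222 epithelial UMIs, and without the top cell of each library the epithelial ratio was 1.07 (0.71 to 1.43). With all deposited barcodes it was -0.33. The 50 control and 141 ACD epithelial barcodes that the filter removed measured 127 and 53.4 CPM. A single removed control barcode held 112 of the 234 removed control UMIs, and a single removed ACD barcode held 104 of 376. The direction in epithelial cells therefore depended on the cell filter, and the value with all barcodes rested in part on single cells.

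Cxcl16, the membrane-bound ligand of CXCR6, was highest in myeloid cells, at 269 (231 to 311) CPM in control and 283 (264 to 304) in ACD (log2 ratio 0.07, -0.16 to 0.31). Epithelial cells measured 57.5 (48.3 to 67.9) and 83.6 (70.7 to 98.1). Stromal cells measured 10.8 (10.1 to 11.5) in control and 18.5 (17.4 to 19.6) in ACD (log2 ratio 0.78, 0.65 to 0.90). Endothelial cells had 3 and 26 UMIs (2.93 and 19.0 CPM, log2 ratio 2.70, 0.99 to 5.07), of which 16 of the 26 came from 17 venous-like cells. Ptprc in the endothelial class was also higher, at 1.95 and 18.3 CPM, and its part in this value was not tested. Lymphoid cells, with 4 and 54 UMIs, were lowest in both libraries.

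The level myeloid value covered unequal differences. Langerhans cell-like cells, the dendritic cells of the epidermis, measured 390 (325 to 463) CPM in 38 control cells and 682 (623 to 744) in 50 ACD cells (log2 ratio 0.81, 0.52 to 1.10). Macrophage and monocyte-like cells measured 116 (59.8 to 202) in 19 control cells and 479 (422 to 542) in 79 ACD cells. The log2 ratio was 2.05 (1.22 to 3.02) and stayed between 1.79 and 2.48 under the alternatives. The control value rests on 12 UMIs. Dendritic cell-like cells were lower in ACD, 366 (263 to 497) in 9 cells and 138 (102 to 183) in 33 cells. Basophil-like cells had 0 UMIs in 16 control cells and 3 in 221 ACD cells, and mast cell-like and neutrophil-like cells had 0 in both libraries.

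Basophil-like cells made up 16 of the 154 control and 221 of the 559 ACD myeloid cells, and neutrophil-like cells 2 and 59. At the subset mix of control, the myeloid log2 ratio of Cxcl16 was 0.68. After thinning to 2000 UMIs, 30.5% (20.8% to 41.6%) of 82 control and 15.3% (12.0% to 19.1%) of 424 ACD myeloid cells had a Cxcl16 UMI, against 0.135% and 0.421% of lymphoid cells. Thinning left out 72 and 135 myeloid cells, many of them shallow mast cell-like cells, and the unthinned shares were 30.5% and 19.1% at median depths of 2351.5 and 3594 UMIs.

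Among stromal cells, Cxcl16 was higher in ACD in each gate. Fibroblast-like cells measured 9.15 (8.31 to 10.1) and 19.0 (17.5 to 20.4), chondrocyte-like cells 14.3 (13.01 to 15.8) and 19.8 (18.1 to 21.6), and mural-like cells 2.73 (1.31 to 5.03) and 6.22 (4.02 to 9.18). The mural UMIs of ACD were all in the Rgs5 cluster, which measured 3.43 (0.933 to 8.77) and 21.5 (13.9 to 31.7). The Ccl11 and Apod cluster had the highest fibroblast level, 39.6 (24.5 to 60.5) and 66.2 (47.5 to 89.8). Follicle-like keratinocytes measured 63.5 (47.3 to 83.5) and 135 (102 to 176), and basal keratinocyte-like cells 56.6 (45.4 to 69.7) and 64.6 (51.3 to 80.3). The intervals of the basal cells overlapped, and those of the follicle-like cells did not.

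Cxcr4, the signalling receptor of CXCL12, measured 71.9 (63.1 to 81.6) CPM in control lymphoid cells and 47.2 (44.4 to 50.2) in ACD (log2 ratio -0.61, -0.81 to -0.40). In myeloid cells it measured 44.4 (29.9 to 63.3) and 77.7 (67.8 to 88.7) (log2 ratio 0.81, 0.25 to 1.41). The order of the leading classes was therefore exchanged, and their intervals overlapped in control but not in ACD. Stromal cells had 2.36 (2.04 to 2.72) and 4.31 (3.81 to 4.85), and the endothelial class had 1 and 5 UMIs, too few for a comparison. Ptprc was higher in the same stromal cells of ACD (3.85 and 14.2), and its part in the stromal Cxcr4 value was not tested.

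The lymphoid difference was seen in several subsets. Regulatory T cell-like cells measured 111 (74.9 to 159) CPM in 59 control cells and 46.8 (40.1 to 54.3) in 614 ACD cells (log2 ratio -1.25, -1.81 to -0.64). Dermal gamma delta T cell-like cells measured 90.2 (73.0 to 110) in control and 59.7 (51.6 to 68.7) in ACD (log2 ratio -0.60, -0.96 to -0.23). CD4 T cell-like cells measured 55.4 (29.5 to 94.7) and 29.2 (24.2 to 35.0), with an interval of the ratio that reached 0.03 and a ratio of 0.17 after thinning, and CD8 T cell-like cells 71.1 (19.4 to 182) and 13.4 (10.5 to 16.9), with only 4 control UMIs from 13 cells. NK and ILC1-like cells, which were 5 cells in control and 454 in ACD, held 120 (106 to 134) in ACD, above each T cell subset. B cell-like cells of ACD measured 177 (108 to 274) from 20 UMIs. Dendritic epidermal T cell-like cells had 0 UMIs in 93 control cells and 8 in 112 ACD cells.

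The difference was smaller at equal depth. Thinned to 2000 UMIs, 11.8% (9.61% to 14.4%) of 743 control and 10.8% (9.72% to 11.9%) of 3328 ACD lymphoid cells had a Cxcr4 UMI, against 0 of 134 and 0 of 121 endothelial cells, which allows shares of up to 2.24% and 2.48%. The unthinned lymphoid shares were 20.5% and 22.2% at median depths of 3561 and 5340 UMIs. With thinned cells the lymphoid log2 ratio was -0.18, and with means over cells it was -0.38. The median gene of the lymphoid class had a log2 ratio of -0.14, and relative to it Cxcr4 was at -0.47. The direction was kept in each of these settings, while its size was not.

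In the myeloid class the level differed between kinds of cells. Basophil-like cells measured 173 (63.6 to 377) in 16 control and 165 (139 to 195) in 221 ACD cells, and neutrophil-like cells of ACD 201.3 (130 to 297). Langerhans cell-like cells measured 27.2 (12.4 to 51.6) and 30.05 (18.8 to 45.5). At the control subset mix the myeloid log2 ratio was -0.33 in place of 0.81. No interval was computed for the former, and control held only 16 basophil-like and 2 neutrophil-like cells. Of the 148 control and 206 ACD Cxcr4 UMIs in fibroblast-like cells, 48 and 87 lay in the Coch, Crabp1 and Tnmd cluster, at 19.2 (14.2 to 25.5) and 28.6 (22.9 to 35.3). A cluster led by a (nonagouti), Igfbp3 and Tnn held 27 and 32, at 16.8 (11.04 to 24.4) and 11.8 (8.05 to 16.6). Muscle cells measured 48.9 (25.2 to 85.4) and 65.5 (43.8 to 94.03).

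Cxcr6, the receptor of CXCL16, was the most abundant receptor in lymphoid cells and was level between libraries, at 294 (276 to 313) and 313 (306 to 321) CPM. Thinned to 2000 UMIs, 38.0% (34.5% to 41.6%) of control and 35.3% (33.7% to 37.0%) of ACD lymphoid cells had a UMI, against 0.199% and 0.549% of stromal cells. Relative to the median gene the log2 ratio was 0.23, and at the control subset mix it was 0.45. The subsets differed in both level and number.

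Dermal gamma delta T cell-like cells, which carry Cd163l1, Il17a and Il23r among their markers, had the highest level and measured 464 (424 to 507) CPM in 217 control cells and 748 (719 to 778) in 471 ACD cells (log2 ratio 0.69, 0.55 to 0.83). The thinned share of these cells with a Cxcr6 UMI was 54.5% (47.5% to 61.4%) and 71.1% (66.7% to 75.2%), and the ratio stayed between 0.65 and 0.81 under the alternatives. CD4 T cell-like cells measured 230 (173 to 300) in control and 378 (359 to 398) in ACD (log2 ratio 0.72, 0.33 to 1.14). Group 2 innate lymphoid cell-like cells (ILC2) measured 176 (140 to 218) in control and 278 (246 to 313) in ACD (log2 ratio 0.66, 0.30 to 1.03). CD8 T cell-like cells measured 409 (259 to 614) in 13 control cells and 315 (300 to 331) in 630 ACD cells, with overlapping intervals. Regulatory T cell-like cells measured 156 (112 to 210) and 114 (103 to 125), and dendritic epidermal T cell-like cells 218 (170 to 275) and 161 (132 to 194).

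NK and ILC1-like cells stood apart in ACD. Their Cxcr6 level was 37.5 (30.2 to 45.9) CPM, below that of each T cell subset, whereas their Cxcr4 level was above that of each T cell subset. B cell-like cells had 0 Cxcr6 UMIs in 3 control and 31 ACD cells. In ACD, 454 NK and ILC1-like and 614 regulatory T cell-like cells, both low in Cxcr6, were among the 3413 lymphoid cells, whereas 217 of the 789 control cells were dermal gamma delta T cell-like.

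**Figure D4:**
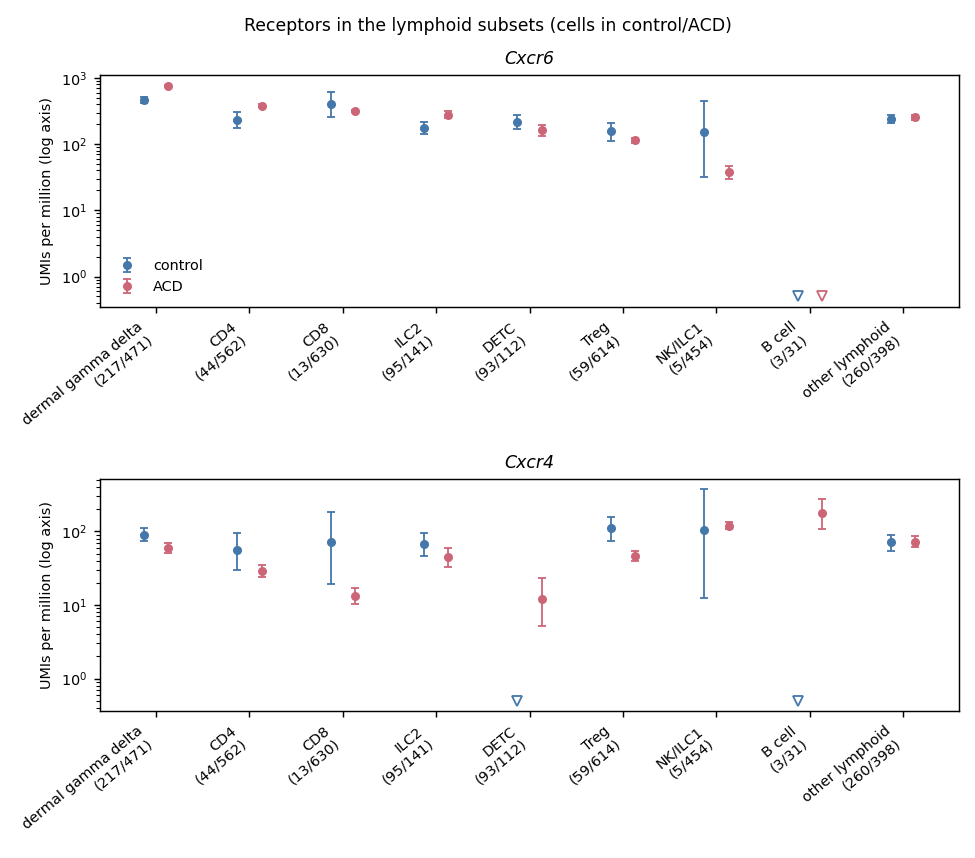
CPM, on a log axis, of Cxcr6 (top) and Cxcr4 (bottom) in 9 lymphoid subsets of the control (blue) and the ACD (red) library, with exact Poisson intervals; open triangles mark 0 UMIs and the labels give cells in control/ACD. Cxcr6 was highest in dermal gamma delta T cell-like cells (464 and 748), and NK/ILC1-like cells of ACD were low in Cxcr6 (37.5) and high in Cxcr4 (120).

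Cxcr6 UMIs in stromal cells went with leukocyte genes. Stromal cells measured 1.55 (1.29 to 1.84) and 4.50 (3.99 to 5.05) CPM, a log2 ratio of 1.54. Of the 65 control and 125 ACD stromal cells with a Cxcr6 UMI, 90.8% and 72.8% also had a UMI of Cd3e, Cd3d, Cd3g, Cd2 or Ptprc, against 2.56% and 13.7% of the other stromal cells. Scrublet, a doublet caller, marked 69.2% and 24.8% of them, against 4.22% and 2.71% of the others. A single unnamed cluster led by lymphocyte genes held 50.4% and 42.5% of these UMIs. The part of leukocyte transcripts or doublets in the stromal Cxcr6 value was not tested, and the value is not read as expression by stromal cells.

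Ackr3, the scavenging receptor of CXCL12, was highest in endothelial cells, at 301 (268 to 336) CPM in control and 219 (195 to 245) in ACD (log2 ratio -0.46, -0.69 to -0.23). Stromal cells were level at 97.0 (94.9 to 99.2) and 96.2 (93.8 to 98.6). Epithelial cells measured 16.96 (12.2 to 23.0) and 21.9 (15.6 to 29.9), lymphoid cells 3.89 and 3.68, and myeloid cells 13.3 and 2.46 from 9 and 7 UMIs. Thinned to 2000 UMIs, 36.6% (28.4% to 45.3%) of 134 control and 31.4% (23.3% to 40.5%) of 121 ACD endothelial cells had a UMI, and 15.4% and 14.8% of stromal cells, against 0.538% and 0.601% of lymphoid cells.

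Lymphatic and arterial cells carried the endothelial Ackr3, and venous cells had little. Lymphatic endothelial-like cells measured 329 (291 to 370) in 113 control cells and 297 (260 to 338) in 73 ACD cells, with overlapping intervals. Arterial-like cells measured 256 (166 to 378) and 241 (181 to 314), and venous-like cells 31.7 (3.84 to 115) and 24.5 (8.99 to 53.3). At the control subset mix the endothelial log2 ratio was -0.11, against -0.46 as summed, and lymphatic cells made up 113 of the 144 control and 73 of the 121 ACD endothelial cells.

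In mural-like cells Ackr3 measured 46.5 (39.7 to 54.0) in control and 76.3 (68.0 to 85.4) in ACD (log2 ratio 0.72, 0.44 to 0.99), whereas Cxcl12 was lower there. The Tagln and Acta2 cluster measured 72.8 (61.6 to 85.4) and 112 (98.99 to 127), and the Rgs5 cluster 14.6 (8.48 to 23.3) and 28.4 (19.5 to 39.9). The 2 mural clusters were thus ordered in opposite ways for the ligand and its scavenger, with Cxcl12 higher in the Rgs5 cluster and Ackr3 higher in the Tagln and Acta2 cluster, in both libraries. Fibroblast-like cells were near level at 119 (116 to 123) and 114 (111 to 118), and chondrocyte-like cells at 67.9 (65.0 to 70.9) and 73.7 (70.3 to 77.1). The Saa3, Cxcl9 and Ccl8 cluster measured 91.9 (63.6 to 128) and 182 (172 to 191), so Cxcl12, Cxcl14 and Ackr3 were all higher in its 513 ACD cells than in its 30 control cells, whose Cxcr6 and Cxcr4 UMIs are given above.

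Within fibroblast-like cells the shares with Cxcl14 and with Ackr3 were higher among cells that held Cxcl12. Of ACD cells thinned to 2000 UMIs, a Cxcl14 UMI was found in 42.6% of those with a Cxcl12 UMI and in 19.0% of those without, and the control values were 33.5% and 20.9%. An Ackr3 UMI was found in 26.2% of ACD cells with Cxcl12 and in 14.0% of those without, and in 22.6% and 16.2% of control cells. The gate pools clusters of unlike levels. In ACD the Saa3, Cxcl9 and Ccl8 cluster measured 868, 512 and 182 CPM of Cxcl12, Cxcl14 and Ackr3. The Coch, Crabp1 and Tnmd cluster of ACD measured 5.92, 7.56 and 25.7. The part of cluster membership in these shares was not tested. Among lymphoid cells of ACD, a Cxcr6 UMI was found in 27.9% of cells with and 36.2% of cells without Cxcr4, and in control in 38.6% and 37.9%. Within dermal gamma delta T cell-like cells the values were 76.4% and 70.4% in ACD and 53.3% and 54.7% in control. In sparse counts such shares describe these cells and were not tested.

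The genes whose levels most resembled those of the members were sought over 35 points, each a subset of at least 50 cells in 1 library, among 15356 genes. The points share libraries and the measure is a description. For Cxcl12 they were Slit3, a guidance ligand (Pearson r 0.92), Grtp1 (0.91) and Wnt5a, a secreted Wnt ligand (0.91). For Cxcl14 they included Sh3d19 (0.88) and Pdzd2 (0.88). For Cxcl16 they were Fcor (0.91), Kctd14 (0.90) and H2-DMb1, a subunit of the peptide-loading factor of MHC class II (0.88). Cxcr4 was most like Pim1, a serine/threonine kinase (0.87), Glipr2 (0.87) and Stx11, a syntaxin of cytotoxic granule release (0.87). Cxcr6 was most like the T cell receptor kinase Zap70 (0.98), Sit1 (0.97) and Ptprcap (0.95). For Ackr3 they included Thbd, which encodes thrombomodulin (0.94), and Cp, which encodes ceruloplasmin (0.92). Between members, r was 0.60 for Cxcl12 with Ackr3, 0.47 for Cxcl12 with Cxcl14 and -0.27 for Cxcl16 with its receptor Cxcr6.

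A list of 41 other genes of the pathway, covering ligand cleavage, partners of CXCR4, desensitization, signal transduction, atypical receptors, tissue retention and the interferon-induced CXC chemokines, had median ratios near those of all genes in 4 of the 5 classes. In stromal cells 3 of 40 tested genes were past 2-fold higher and 0 lower, against 0.559% and 0.0769% of all genes. Their median log2 ratio was 0.03 against -0.01 for all genes. In endothelial cells 3 of 26 were higher and 0 lower, against 2.7% and 1.04% (median 0.04 against -0.04). In epithelial cells it was 4 of 23 and 0, against 1.64% and 0.545% (median 0.05 against -0.05). In lymphoid cells it was 5 of 37 and 1, against 1.44% and 1.28% (median -0.01 against -0.08). In myeloid cells it was 5 of 30 and 1, against 4.45% and 3.77% (median 0.29 against -0.10). The interferon-induced chemokines and their receptor gave 2 of these higher genes in each class but the lymphoid, where they gave 3. The study chose them on these samples, so they are no independent evidence.

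Unlike the homeostatic ligands, Cxcl9 measured 0.754 CPM in control and 181 in ACD stromal cells, and Cxcl10 measured 15.8 and 167. Cxcl9 had 0 UMIs in control endothelial, epithelial, lymphoid and myeloid cells and 273, 171, 14.8 and 175 CPM in ACD. Their receptor Cxcr3 measured 4.19 and 36.5 in lymphoid cells. Cd74, the invariant chain of MHC class II and a partner of CXCR4 in binding the cytokine MIF, measured 19.7 and 318 in stromal cells, 2.93 (3 UMIs) and 937 in endothelial cells, 5.38 and 735 in epithelial cells, and 103 and 244 in lymphoid cells. In myeloid cells, where Cd74 was highest, it was lower in ACD, at 23365 and 14311 (log2 ratio -0.71, -0.73 to -0.68). Of the 154 control and 559 ACD myeloid cells, 16 and 221 were basophil-like and 38 and 50 Langerhans cell-like. The part of this cell mix in the Cd74 value was not tested. The genes of ligand cleavage, which include Adam10 and Adam17, held 0 of 6 past 2-fold in stromal cells and 0 of 6 in lymphoid cells. Mmp2, a matrix protease that cleaves CXCL12, measured 62.1 in control and 14.8 in ACD myeloid cells, from 42 UMIs in each. Mmp2 was highest in stromal cells, at 994 and 716, and lymphoid cells had 36.5 and 21.6. The part of stromal transcripts in the myeloid value was not tested. Of the genes of desensitization, Rgs2 measured 959 and 394 in lymphoid cells, and Rgs16, another regulator of G protein signalling, measured 23.7 and 73.8. In myeloid cells Arrb2, which encodes a beta-arrestin, measured 35.5 in control and 89.0 in ACD, and Rac2, a GTPase of leukocyte migration, measured 163 and 402. The part of the cell mix in the myeloid Arrb2 and Rac2 values was not tested either.

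Genes of tissue retention were read beside the receptors in lymphoid cells. There 0 of 4 were past 2-fold, against 1.44% of all genes higher and 1.28% lower. Itgae, one of the 4, measured 273 and 143 (log2 ratio -0.93, -1.04 to -0.83). Cd69, which holds lymphocytes in tissue by blocking the exit receptor S1PR1, measured 1311 (1178 to 1455) and 640 (614 to 666) in regulatory T cell-like cells, where Cxcr4 was also lower in ACD. In the same cells S1pr1 measured 7.40 (0.897 to 26.7) from 2 control UMIs and 55.8 (48.4 to 63.97) in ACD (log2 ratio 2.91, 1.04 to 5.97), and Klf2, a transcription factor of circulating lymphocytes, measured 263 (205 to 332) and 189.7 (176 to 204). In dermal gamma delta T cell-like cells Cd69 was near level at 1275 (1208 to 1345) and 1157 (1120 to 1194). Klf2 measured 132 (111 to 156) and 93.9 (83.7 to 105) in the gamma delta cells, and S1pr1 measured 11.4 (5.89 to 19.9) and 10.7 (7.46 to 14.9). Cd69 in epithelial cells measured 2.07 in control and 25.8 in ACD, and in myeloid cells 148 and 392. Ptprc in the epithelial class was also higher in ACD, at 1.65 and 14.6, and its part in the epithelial Cd69 value was not tested. Nor was the part of the cell mix in the myeloid Cd69 value.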

How the data were processed

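Per the labels, single-cell RNA-seq was run on 1 control and 1 ACD library of mouse ear skin. The authors aligned reads to mm10 and deposited raw UMI counts, whole numbers for each gene in each barcode. Cell Ranger 3.1.0 is named in the submitters' processing notes, and the methods name another version. The limit of 25000 UMIs, printed in the methods as a minimum, was applied as a maximum.

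The 6 genes, the marker and pathway lists and the tests were chosen with earlier results of these data known, and the gate scoring was set after the matrices had been seen. A marker's UMIs per 10000 were divided by their 99th percentile over cells with a UMI and capped at 1, and a gate scored the mean of its 3 highest markers. A cell was mixed if the next class reached 0.67 of its score. Subsets used 2 markers. Scanpy 1.11.5 gave 30 Leiden clusters (2000 variable genes without the members, 30 components, 20 neighbours, resolution 1). Counts were summed per class and scaled per 1000000 UMIs. Sums have exact Poisson intervals, shares Clopper-Pearson and ratios conditional binomial ones, and UMIs without replicates give counting error only. Genes were past 2-fold on CPM plus 10, with at least 50 UMIs. Doublets were kept, and Scrublet calls were an alternative. The interval calculation was tested on simulated data. Genes named are the members, the 3 genes most like each (some are not reported here) and, per pathway group, up to 2 past 2-fold in a direction. Retention genes in lymphoid subsets, ratios of cleavage genes without the added 10, cluster values and shares with T cell genes were chosen after values were seen. So were the alternatives that leave out shared barcodes or unnamed clusters. Positions come from GENCODE M21, which held 27645 of the 27998 identifiers, and promoters from RefSeq. Python 3.11.15, numpy 2.4.6, scipy 1.17.1 and matplotlib 3.10.9 were used.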

Additional observations from a re-analysis of the deposited data

Results flagged for a closer look

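Compared among the 5 classes, or among the subsets of a class, 5 of the 6 genes had log2 ratios of ACD over control of opposite sign with both counting intervals clear of 0 (at least 10 UMIs in each library and 50 over both). Cxcr6 was not among them, but in clusters of fibroblast-like cells it was at 2.21 in the Sfrp4, Mfap5 and Pi16 cluster from 7 and 20 UMIs, and -3.15 in the Saa3, Cxcl9 and Ccl8 cluster from 27 and 63 UMIs. The differences between groups of cells were not tested, since each condition was 1 library. The share of all genes that meet the same rule was not computed, so the count of 5 does not set the members apart. Cxcl12 was at 0.11 in fibroblast-like and -0.75 in mural-like cells, but both were below 0 with means over cells or thinned cells. Cxcl14 was at 0.55 in fibroblast-like and -0.62 in mural-like cells, the latter from 56 and 40 UMIs and above 0 with all deposited barcodes or without Scrublet calls, and at 1.22 in epithelial and -0.69 in lymphoid cells, where its levels were near background. The epithelial and the lymphoid signs both turned under an alternative. Cxcl16 was at 2.05 in macrophage and monocyte-like and -1.41 in dendritic cell-like cells, which numbered 9 in control. Cxcr4 was at 0.87 in stromal and -0.61 in lymphoid cells. Ackr3 was at 0.72 in mural-like and -0.061 in fibroblast-like cells.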

How the results depend on the processing

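No paired analysis was possible because each group held 1 library. Of 488 recomputed log2 ratios of 50 results, 436 stayed within the counting interval of the value reported, and 32 had the opposite sign. With all deposited barcodes the ratio of Cxcl14 turned to -0.33 in epithelial and -0.26 in basal keratinocyte-like cells, and in stromal cells it was 0.88 for Cxcl14 and 0.23 for Cxcl12, and -0.036 for Cxcr6 in lymphoid cells. With Scrublet calls removed, stromal Cxcl14 was at 0.39 and stromal Cxcr6 at 3.07, and with classes from Leiden clusters stromal Cxcr6 was at 1.96. With means over cells, stromal Cxcl12 was at -0.33, stromal Cxcl14 at 0.19 and lymphoid Cxcr4 at -0.38. With cells thinned to 2000 UMIs these were -0.32, 0.23 and -0.18, and myeloid Cxcl16 was at -0.55. Fibroblast Cxcl12 turned to -0.21 with means over cells and -0.20 after thinning, mural Cxcl14 to 0.46 with all barcodes and 0.33 without Scrublet calls, and lymphoid Cxcl14 to 0.54 with Leiden classes. The cause of these changes was not tested. Median-of-ratios size factors put lymphoid Cxcr6 at 0.23. At the control subset mix the values were 0.083 for stromal Cxcl12, 0.41 for stromal Cxcl14, 0.68 for myeloid Cxcl16, -0.33 for myeloid Cxcr4 and 0.45 for lymphoid Cxcr6. With 1 CPM added, 1 member in place of 0 and 7 pathway genes in place of 3 passed 2-fold in stromal cells, and with at least 20 UMIs, 1 member in place of 0 did in endothelial cells. Of 20 shares recomputed, 1 moved past its interval, stromal Ackr3 unthinned (4.09 percentage points higher in ACD). Counting error is small for stromal cells, but the endothelial, epithelial and most myeloid and control lymphoid values rest on few cells, and mouse-to-mouse spread is unknown.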
